A study of Mus musculus with 6 samples.

Results

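Retinoic acid is made from vitamin A (retinol) in successive oxidations. Retinol dehydrogenases such as *Rdh10* make retinal, a step that the reductase *Dhrs3* runs backwards, and retinal dehydrogenases such as *Aldh1a1* oxidize retinal to retinoic acid. Retinoic acid binds the nuclear receptors *Rara*, *Rarb* and *Rarg*, which act on DNA as pairs with the RXR receptors, and it is broken down by Cyp26 enzymes, of which *Cyp26b1* is a member. In blood-forming tissue, retinoid signaling is known for its part in stem cell dormancy and myeloid differentiation. Aldehyde dehydrogenase activity is widely used as a flow cytometry mark of primitive blood cells, and *Aldh2* is known for clearing acetaldehyde and other reactive aldehydes in these cells.

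The 9 genes described here are *Aldh1a1*, *Aldh1a7*, *Aldh2*, *Rdh10*, *Dhrs3*, *Rara*, *Rarb*, *Rarg* and *Cyp26b1*, out of 26264 genes in the deposited table. They were selected on the strong fall of *Aldh1a1* between these same libraries, to which the other genes were added for their place in the pathway, so their fold changes between the genotypes are given as a description, and their calls in the fit over all genes are counted but not read as tests. RNA-seq had been performed on hematopoietic stem cells (HSCs), sorted as lineage-negative Sca1+ cKit+ CD150+ CD48− bone marrow cells from untreated female mice at 8 weeks of age. The groups were 3 WT mice (C57Bl/6) and 3 IRF1 KO mice (B6.129S2-*Irf1 tm1Mak*/J), which carry the targeted allele in all tissues and not in HSCs alone, so effects that arise within HSCs and effects of the surrounding tissue cannot be told apart. The libraries are named by genotype and by the numbers 2, 3 and 4, and held between 43138521 reads (KO 2) and 59658080 reads (WT 2) on genes. Values are normalized counts, that is, reads of a gene divided by a size factor of its library.

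*Irf1* itself was counted at 10122 in WT 2, 11120 in WT 3 and 12058 in WT 4, and at 9267 in KO 2, 9524 in KO 3 and 9287 in KO 4. Each IRF1 KO library was thus below each WT library, and the IRF1 KO mean was 84.3% of the WT mean. The log2 fold change was −0.24 (SE 0.09, limma adjusted p = 0.170, lower in 3 of 3 IRF1 KO libraries). A count over the whole gene pools the part that the allele removes with the rest of the transcript, so this value does not check the genotype labels.

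*Aldh1a1*, which oxidizes retinal to retinoic acid in the cytosol, was counted at 4110 in WT 2, 4852 in WT 3 and 4858 in WT 4. In IRF1 KO libraries it was counted at 1540 in KO 2, 1373 in KO 3 and 1548 in KO 4. The groups lay far apart and each was tight around its mean, 4606 ± 430 in WT and 1487 ± 98.8 in IRF1 KO HSCs (SD, n = 3 each). The IRF1 KO mean was 32.3% of the WT mean, a log2 fold change of −1.63 (SE 0.10) on the scale of log2(normalized count + 1). Ordered from the lowest log2 fold change, it was the 94th of the 17404 tested genes, those whose normalized counts averaged 10 or more. In bulk samples, fewer cells that express a gene and less RNA of it per cell cannot be told apart.

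*Aldh1a7*, the closest relative of *Aldh1a1* and its neighbor on chromosome 19, did not share this pattern. It was counted at 58.4 in WT 2, 68.7 in WT 3 and 92.5 in WT 4, against 118 in KO 2, 113 in KO 3 and 65.4 in KO 4. The groups overlapped, since KO 4 was below WT 3 and WT 4, and the log2 fold change was 0.41 (SE 0.36). It was 0.26 without KO 2, 0.26 without WT 2 and 0.68 without KO 4. The coding sequences of *Aldh1a1* and *Aldh1a7* in the GENCODE vM1 transcripts are both 1506 bases long and were identical at 91.6% of positions. Exact sharing over the length of a read was rare: 1 of 1967 windows of 100 bases in the *Aldh1a7* transcript also occurred in an *Aldh1a1* transcript, as did 151 of 2017 windows of 50 bases. How reads from such stretches were handled is not given in the sources used here. They could have been dropped or assigned to the other gene, so the low *Aldh1a7* counts are uncertain.

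*Aldh1a2* and *Aldh1a3*, the other well-known retinal dehydrogenases, had few counts. *Aldh1a2* was counted at 9.87 to 30.4 in WT and 2.13 to 15.6 in IRF1 KO libraries, and *Aldh1a3* at 5.76 to 36.1 and 8.53 to 26.8. Per kilobase of exon, which allows genes of different length to be compared, *Aldh1a1* made up 97.9% ± 0.405 of the summed level of *Aldh1a1*, *Aldh1a2*, *Aldh1a3* and *Aldh1a7* in WT libraries and 92.9% ± 2.27 in IRF1 KO libraries (SD, n = 3). The sum itself was 2293 ± 223 normalized counts per kilobase in WT and 779 ± 38.4 in IRF1 KO libraries. *Aldh1a7* was the next in both genotypes, with 1.54% ± 0.268 and 6.17% ± 1.89 of the sum. The transcripts of these 4 genes were therefore mostly *Aldh1a1* in both genotypes, at a lower total in IRF1 KO HSCs.

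*Aldh2*, the mitochondrial aldehyde dehydrogenase, was the most abundant of the 9 genes. It was counted at 36498, 39581 and 41605 in WT 2, WT 3 and WT 4, and at 40147, 43093 and 42999 in KO 2, KO 3 and KO 4. These ranges overlapped, with a log2 fold change of 0.10 (SE 0.09) that was 0.05 without WT 2, 0.15 without WT 4 and 0.18 with quantile normalization. The genotypes were thus not separated in *Aldh2*, unlike in *Aldh1a1*.

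The enzymes on either side of retinal were both at higher means in IRF1 KO HSCs, without being called by limma. *Rdh10*, which makes retinal, was counted at 781, 808 and 794 in WT 2, WT 3 and WT 4, and at 835, 1205 and 1146 in KO 2, KO 3 and KO 4. Each IRF1 KO library was above each WT library, but KO 2 only narrowly, and the log2 fold change was 0.40 (SE 0.15). *Dhrs3*, which reduces retinal to retinol, was counted at 754, 695 and 897 in WT 2, WT 3 and WT 4, and at 1375, 887 and 1506 in KO 2, KO 3 and KO 4. KO 3 lay below WT 4, so the groups overlapped, and the log2 fold change was 0.65 (SE 0.18). *Dhrs3* was called higher by DESeq2 (fold change 0.68 on the log2 scale), with the replicate number as a block (0.65), without KO 3 (0.89) and without WT 4 (0.76). edgeR did not call it, and the log2 fold change was 0.51 without KO 4, 0.57 without KO 2 and 0.57 without WT 3. The first principal component (32.4% of the variance) split the libraries into WT 2, WT 3 and KO 3 against WT 4, KO 2 and KO 4. With a term for that split the *Dhrs3* value was 0.49. Its difference was 0.29 on the side of KO 3 and 0.68 on the side of KO 2 and KO 4. For *Aldh1a7* these differences were 0.83 and −0.07, for *Aldh2* 0.18 and −0.0020 and for *Rdh10* 0.60 and 0.30.

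*Cyp26b1*, which inactivates retinoic acid, was very even in WT libraries (237, 239 and 238 in WT 2, WT 3 and WT 4) and uneven in IRF1 KO libraries (365 in KO 2, 258 in KO 3 and 636 in KO 4). All IRF1 KO libraries were above all WT libraries, with a log2 fold change of 0.71 (SE 0.27). That value was 0.36 without KO 4 and 1.01 without KO 3, so it depended on the library considered, and DESeq2 called the gene higher. With the term for the split it was 0.56, and the difference was 0.11 on the side of KO 3 and 1.02 on the side of KO 2 and KO 4. *Cyp26a1* and *Cyp26c1*, the other retinoic acid hydroxylases, had at most 4.94 normalized counts in any library and were not tested.

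The 3 retinoic acid receptors had log2 fold changes of differing sign. *Rara* was counted at 417, 369 and 401 in WT 2, WT 3 and WT 4, and at 547, 505 and 540 in KO 2, KO 3 and KO 4, a log2 fold change of 0.42 (SE 0.16) with no overlap between the groups. *Rarb* was counted at 713, 763 and 682 in WT 2, WT 3 and WT 4, and at 572, 474 and 727 in KO 2, KO 3 and KO 4, a log2 fold change of −0.30 (SE 0.17) with KO 4 inside the WT range. That value was −0.16 without KO 3 and −0.46 without KO 4. The difference was −0.64 on the side of KO 3 and −0.08 on the side of KO 2 and KO 4. *Rarg* was counted at 514, 428 and 414 in WT 2, WT 3 and WT 4, and at 450, 525 and 527 in KO 2, KO 3 and KO 4, a log2 fold change of 0.15 (SE 0.17) with overlap. It was 0.25 without WT 2, 0.23 without KO 2 and 0.09 without WT 4. *Rara* was the only receptor of the 3 whose groups did not overlap.

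The summed level of the 3 receptors was 415 ± 18.7 normalized counts per kilobase in WT and 417 ± 44.3 in IRF1 KO libraries (SD, n = 3), and their shares of it are given as a description. *Rarb* contributed 50% to 55.6% of the sum in WT libraries and 37.6% to 47.2% in IRF1 KO libraries. *Rara* contributed 19.3% to 22.2% in WT and 25.3% to 29.7% in IRF1 KO libraries. Neither pair of ranges overlapped, as for the counts of 19.9% of all genes tested, whereas the shares of *Rarg* did (25.0% to 28.9% and 27.2% to 33.5%). The shares were not tested, and limma called neither *Rara* nor *Rarb*. *Rarb* had the highest level per kilobase of the 3 in all 6 libraries.

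**Figure D1:**
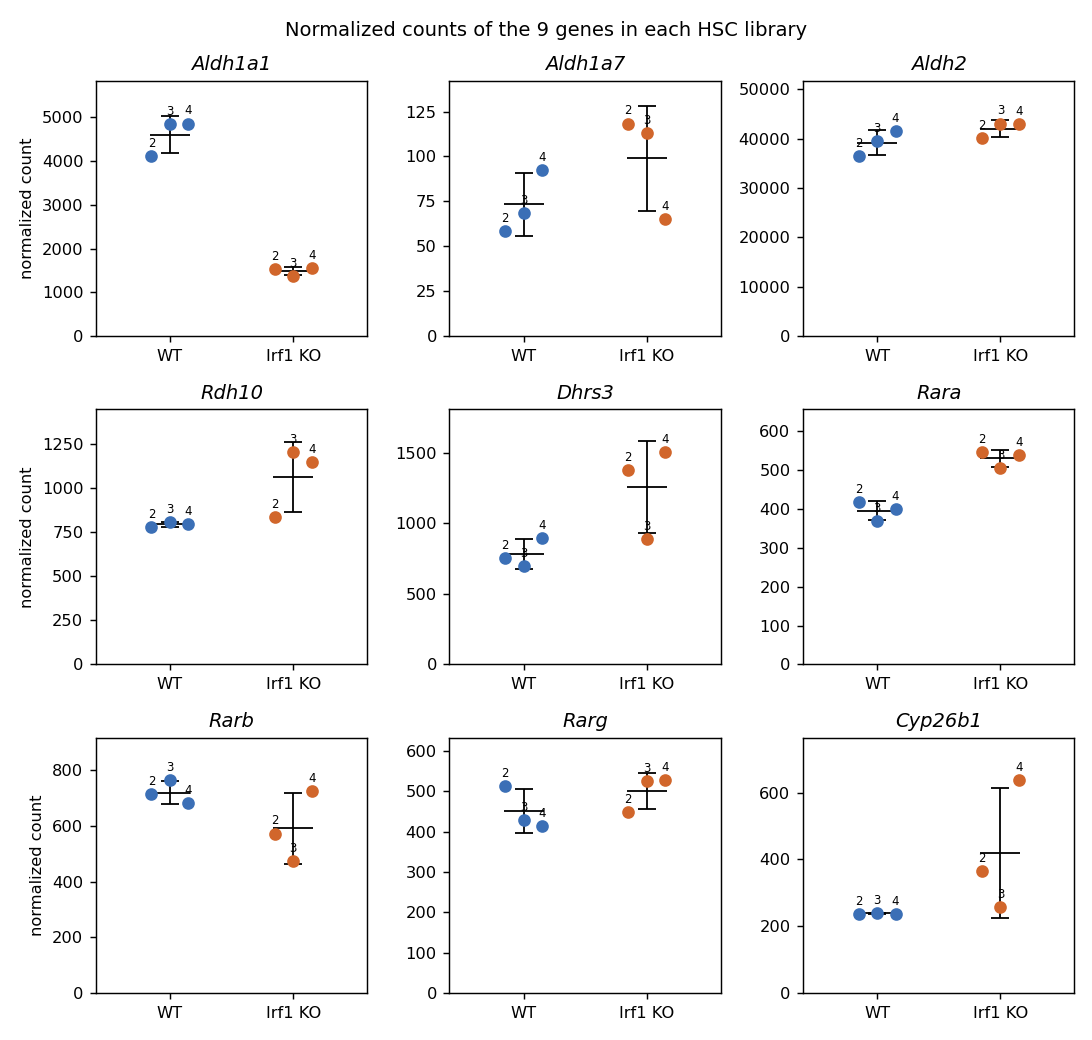
Normalized counts (vertical axes, each from 0) of the 9 genes in each library, with WT libraries in blue, IRF1 KO libraries in orange, replicate numbers beside the points, and black bars for the mean and SD of 3 libraries. *Aldh1a1* lies between 4110 and 4858 in WT and between 1373 and 1548 in IRF1 KO libraries, whereas the other genes lie closer together or overlap.

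Taken per kilobase, the order of mean levels in WT HSCs was *Aldh2* (8339), *Aldh1a1* (2244), *Dhrs3* (267), *Rarb* (218), *Rdh10* (191), *Rarg* (110), *Rara* (86.5), *Cyp26b1* (51.7) and *Aldh1a7* (35.4), in normalized counts per kilobase. No 2 neighbors in this order overlapped over the 3 WT libraries. In IRF1 KO HSCs, *Aldh2* (8945) and *Aldh1a1* (724) were still the top pair, followed by *Dhrs3* (429) and *Rdh10* (255). The gap between *Aldh1a1* and the next gene had narrowed, and *Rarb* (179) now followed *Rdh10* with overlapping libraries. Below these, *Rarg* (122) and *Rara* (116), *Rara* and *Cyp26b1* (91.2), and *Cyp26b1* and *Aldh1a7* (47.9) were not separated beyond the spread of the libraries.

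Of the 9 genes, all passed the filter on low counts, 1 (*Aldh1a1*) was called lower and 0 were called higher by limma, which calls a gene at an adjusted p under 0.05 with an absolute log2 fold change above 0.58. Over all 17404 genes tested, 0.954% were called lower (166 genes) and 0.96% higher (167 genes). Leaving out a library moved the number of genes called higher to 104 (without KO 2), 83 (without KO 4), 102 (without WT 3) and 305 (without WT 4), and the number called lower to 105 (without WT 3) and 265 (without WT 4). At an unadjusted p under 0.05 there were 5 of the 9 genes, *Aldh1a1* included, and 2863 of all genes. edgeR called 0 of the 9 higher, and 165 of all genes. DESeq2 called 2 of the 9 higher, *Dhrs3* and *Cyp26b1*, and 289 of all genes. The groups did not overlap for 4 of the 9 genes (*Aldh1a1*, *Rdh10*, *Rara* and *Cyp26b1*), against 19.9% of all genes tested. The median log2 fold change of the 9 was 0.40, beside −0.0028 over all genes. Since the genes were chosen on this contrast, the counts of the 9 restate that choice in part and nothing is read from them. Over the 17 alternative analyses the log2 fold change of *Aldh1a1*, whose direction the choice fixed, lay between −1.71 (without WT 2) and −1.57 (without KO 3).

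Beyond these 9 genes, 9 lists of genes that handle retinoids and aldehydes were examined, 103 genes in all. Of these, 14 were below the filter and 80 of the tested genes were outside the 9. limma and edgeR called 0 of the 80 in either direction, while 11 had an unadjusted p under 0.05. DESeq2 called 2 higher (*Bco2* and *Cbr3*) and 0 lower. Over all 17404 genes tested, limma called 0.96% higher and 0.954% lower, and 2863 had an unadjusted p under 0.05. There edgeR called 165 higher and 162 lower, and DESeq2 289 and 208. The counts per list below are to be read beside these. The median log2 fold change of the 80 was 0.02, and 42 were above 0. A p that misses the threshold does not show that a gene did not differ.

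Among enzymes that interconvert retinol and retinal, 14 genes outside the 9 were tested and 0 were called by limma, edgeR or DESeq2, 2 of them with an unadjusted p under 0.05 (*Dhrs7* and *Adh1*). *Adh5*, the formaldehyde-clearing alcohol dehydrogenase, had the highest level per kilobase of this list (3412 in WT and 3358 in IRF1 KO HSCs). Its log2 fold change was −0.03 (SE 0.09, limma adjusted p = 0.940), and it was above 0 without KO 2 (0.05) or WT 3 (0.02), with quantile normalization (0.03) and with the term for the split (0.01). *Rdh1* had the largest log2 fold change of the list in limma, −2.04 (SE 1.21), but rested on 60 reads in WT and 27 reads in IRF1 KO libraries, with limma adjusted p = 0.459. It was −1.06 without KO 3, −1.32 without WT 4 and −3.48 without KO 2, and −1.09 by DESeq2, −1.08 by edgeR and −1.07 with a pseudocount of 5. In these 3 alternatives, and without KO 3 or WT 4, *Adh1* had the larger value of the 2 in size. *Rdh11* (2943 and 2767 normalized counts) and *Rdh14* (2483 and 2591) were further retinol dehydrogenases with ample counts and like means in WT and IRF1 KO HSCs. The last 2 were named after their values were seen.

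In the list of retinal oxidation, 3 genes outside the 9 were tested and 0 were called by limma, 0 at an unadjusted p under 0.05, by edgeR or by DESeq2. The largest log2 fold change among them in the main limma fit was that of *Aldh1a2*, −1.34 (SE 0.82, limma adjusted p = 0.476). It was −0.71 without KO 2 and −1.91 without KO 3, and the order of these genes was not examined in the alternatives. The list of retinoic acid degradation held no tested gene besides *Cyp26b1*.

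Retinoid uptake, storage and binding was represented by 14 tested genes, of which limma and edgeR called 0, DESeq2 called 1 (*Bco2*) and 2 had an unadjusted p under 0.05, *Fabp5* and *Bco2*. *Fabp5*, a fatty acid-binding protein that can also carry retinoic acid, had 2274 to 2593 normalized counts in WT and 1807 to 1953 in IRF1 KO libraries. These ranges did not overlap, and the log2 fold change was −0.38 (SE 0.10, limma adjusted p = 0.0575, lower in 3 of 3 IRF1 KO libraries). *Bco2*, which cleaves carotenoids, had 237 to 346 in WT and 446 to 572 in IRF1 KO libraries, a log2 fold change of 0.72 (SE 0.20, limma adjusted p = 0.0689, higher in 3 of 3). DESeq2 and the fit with the replicate number as a block called *Bco2* higher. *Fabp5* and *Bco2* were named with their values already known. *Stra6*, a retinol transporter, had the largest log2 fold change in limma (−1.50, SE 1.07, limma adjusted p = 0.564), at 30.1 normalized counts or fewer in all libraries, and it was −0.23 without KO 4 (there below *Bco2* in size, 0.61) and −2.47 without KO 2. DESeq2 gave −0.87, edgeR −0.86 and a pseudocount of 5 gave −0.81. *Crabp1* had at most 3.29 normalized counts in any library and *Crabp2*, the other classical carrier of retinoic acid, at most 33.3.

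Of the RXR partners, *Rxrb* stood far above the 3 retinoic acid receptors in level. It had 2607 normalized counts per kilobase in WT and 2704 in IRF1 KO HSCs, the highest of the receptor list, with a log2 fold change of 0.05 (SE 0.08, limma adjusted p = 0.840), which was 0.03 without KO 3, KO 4 or WT 4 and 0.10 without KO 2. *Rxra* had 1085 to 1362 normalized counts in WT and 1325 to 1795 in IRF1 KO libraries, with a log2 fold change of 0.32 (SE 0.14, limma adjusted p = 0.242) that was 0.21 without KO 3. *Rxrg* had a log2 fold change of 2.01 (SE 0.86, limma adjusted p = 0.255), resting on at most 9.68 normalized counts in WT and 10.7 to 24.9 in IRF1 KO libraries, and was 1.33 with a pseudocount of 5. limma called 0 of these 3 partners, edgeR and DESeq2 called 0, and 2 (*Rxra* and *Rxrg*) had an unadjusted p under 0.05.

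Of 14 receptor coregulators, all were tested and limma, edgeR and DESeq2 called 0, with 0 at an unadjusted p under 0.05. Their log2 fold changes ran from −0.16 to 0.18, the narrowest range of the lists with more than 1 tested gene outside the 9. In those other lists the largest fold changes were of genes with few counts and wide SEs. The ranges thus do not compare the lists at like precision. *Hdac3*, a histone deacetylase of the corepressor complex, had the highest level (2240 and 2097 per kilobase). *Kat2b*, an acetyltransferase, had the largest log2 fold change in the main limma fit (0.18, SE 0.14, limma adjusted p = 0.609, and 0.12 without KO 2). *Tbl1xr1* was close to it in size (−0.16), and their order was not examined in the alternatives.

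Textbook target genes of retinoic acid showed no common direction. Of the 11 tested outside the 9, limma called 0, 1 (*Cd38*) had an unadjusted p under 0.05, edgeR and DESeq2 called 0, and 7 had a log2 fold change above 0, with a median of 0.09. *Tgm2*, a transglutaminase induced by retinoic acid in myeloid cells, had the highest level of the list, 6030 per kilobase in WT and 5713 in IRF1 KO HSCs. Its log2 fold change was −0.08 (SE 0.10, limma adjusted p = 0.782), against −0.15 without KO 4, −0.02 without KO 2, −0.0034 without WT 3 and 0.03 with quantile normalization. *Cd38* had 582 to 852 normalized counts in WT and 826 to 1108 in IRF1 KO libraries, a log2 fold change of 0.40 (SE 0.17, limma adjusted p = 0.253) that was 0.22 without WT 3. *Cyp26b1*, *Dhrs3* and *Rarb*, which are also targets and were described above, had log2 fold changes of 0.71, 0.65 and −0.30.

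In the aldehyde dehydrogenase superfamily, 17 tested genes outside the 9 gave 0 calls by limma, edgeR or DESeq2. Of these, 5 had a log2 fold change above 0, with a median of −0.08, and *Aldh1a2* (described above) had the largest in the main limma fit, −1.34. An unadjusted p under 0.05 was found for 2, *Aldh3a1* and *Aldh3a2*. *Aldh3a1* had 39.5 to 139 normalized counts in WT and 142 to 226 in IRF1 KO libraries, a log2 fold change of 1.20 (SE 0.41, limma adjusted p = 0.143, higher in 3 of 3), and was called higher without WT 4 (1.65). The value was 0.75 without WT 2 and 0.90 with the term for the split. *Aldh3a2*, which oxidizes fatty aldehydes, had 2868 to 3396 in WT and 3442 to 4008 in IRF1 KO libraries, a log2 fold change of 0.26 (SE 0.10, limma adjusted p = 0.194). The abundant members *Aldh9a1* (9578 and 9460 normalized counts), *Aldh18a1* (10567 and 9161) and *Aldh16a1* (8047 and 7638) overlapped between the genotypes. *Aldh1l1*, a folate enzyme, had 3700 to 3798 in WT and 3291 to 3402 in IRF1 KO libraries, which did not overlap, with a log2 fold change of −0.16 (SE 0.09, limma adjusted p = 0.393). These examples were chosen after their values were seen.

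The list of other aldehyde-handling enzymes had 13 tested genes and 0 calls by limma or edgeR, 2 genes with an unadjusted p under 0.05 (*Cbr3* and *Gsta4*), and 1 call by DESeq2 (*Cbr3*). *Cbr3*, a carbonyl reductase, had 239 to 341 normalized counts in WT and 367 to 508 in IRF1 KO libraries, a log2 fold change of 0.62 (SE 0.20, limma adjusted p = 0.126, higher in 3 of 3). *Gstp1*, a glutathione transferase, had the highest level per kilobase among the genes with an exon length (7197 and 7082) and a log2 fold change of −0.03 (SE 0.09, limma adjusted p = 0.936), which was above 0 without KO 2 (0.04) and with quantile normalization (0.01). *Akr1a1*, an aldehyde reductase with more counts (20571 and 18950 normalized counts in WT and IRF1 KO HSCs), had no exon length to compare. The largest log2 fold change in the main limma fit was that of *Akr1b8*, 0.96 (SE 0.77, limma adjusted p = 0.622), at 23.5 normalized counts or fewer. It was 0.49 without WT 3, 1.41 without WT 2 and 0.66 without KO 2, there below *Cbr3* (0.75).

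**Figure D2:**
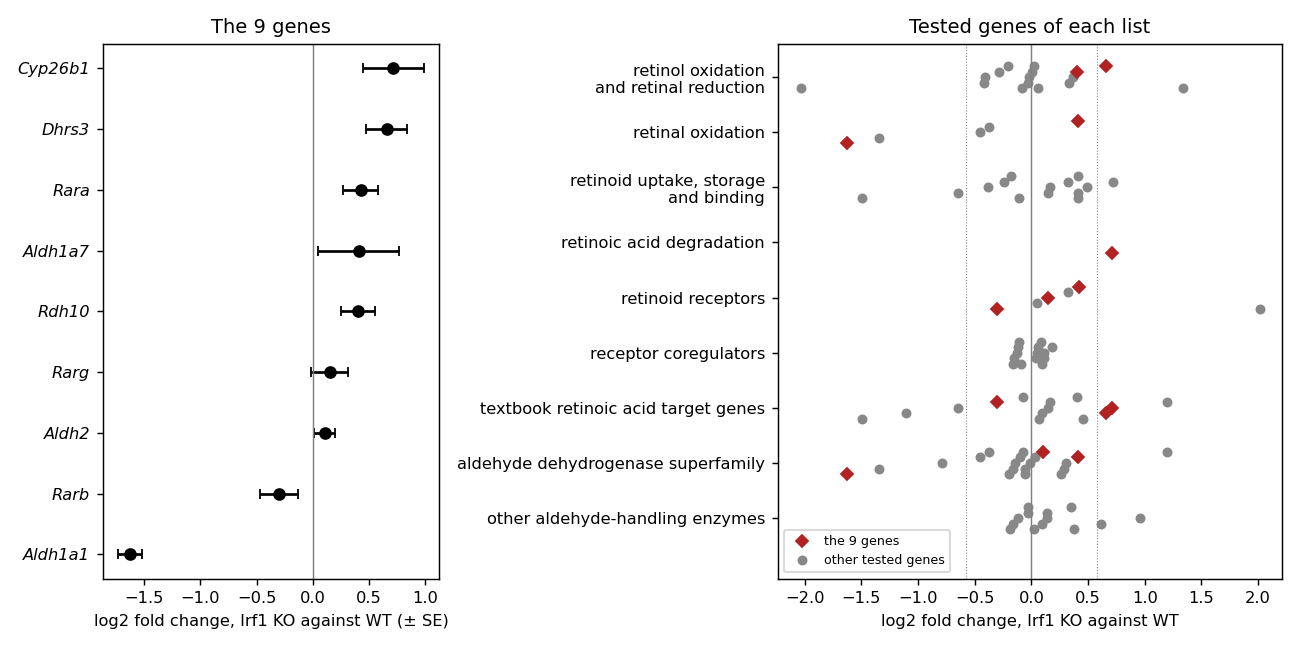
Log2 fold changes of IRF1 KO against WT HSCs (horizontal axes) for the 9 genes with their SE (left) and for every tested gene of the 9 lists (right), where red diamonds are the 9 genes, gray circles the other genes and dotted lines the fold change threshold of 0.58 in either direction. *Aldh1a1* lies at −1.63, and the points beyond −1 or 1 that are not diamonds are genes with at most 226 normalized counts in any library, none of them called by limma.

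The genes around *Aldh1a1* and *Aldh1a7* in the gene order of RefSeq (GRCm38.p6) were examined next. *Anxa1*, the nearest tested gene on the *Aldh1a1* side, had 4392 to 5979 normalized counts in WT and 5803 to 7504 in IRF1 KO libraries, a log2 fold change of 0.38 (SE 0.12, limma adjusted p = 0.118). *Tmc1*, beside *Aldh1a7*, had 9.02 to 59.2 and 16.4 to 29.9 normalized counts, a log2 fold change of −0.39 (SE 0.68, limma adjusted p = 0.851) that was 0.11 without WT 2, −0.11 without WT 4, −0.20 without KO 3, −0.62 without KO 2, −1.18 without WT 3 and −0.74 by DESeq2 or edgeR. The low *Aldh1a1* level was thus flanked by a gene with a positive fold change and by one with few counts, neither called. The noncoding genes *1500015L24Rik*, *E030003E18Rik*, *C730002L08Rik* and *4930554I06Rik* were below the filter, and *Gm32689*, *Gm41816*, *Gm6684*, *Gm32750* and *Gm3775* were not analysed here.

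Promoter sequences were taken from RefSeq (GRCm38.p6), which had entries for 7 of the 9 genes with 14 transcription starts, and the 250 bases before each start were searched on both strands. A core of the interferon-stimulated response element, GAAA and GAAA with any 2 bases between them, which IRF factors bind, occurred before 2 starts of *Dhrs3* (a single match in overlapping windows) and in none of the windows of *Aldh1a1*, *Aldh1a7*, *Rara*, *Rarb*, *Rarg* or *Cyp26b1*. It was found in 2.98% of all 32851 promoter windows of that length. The STAT core TTCNNNGAA occurred before 1 start of *Rara* and the start of *Rarb*, against 7.02% of all windows. The nuclear receptor motif AGGTCA occurred before 1 start of *Rarg* (14.0% of all windows). Its other form, AGTTCA, occurred before 1 start of *Rara* and the start of *Rarb* (11.8%). In *Rara* AGTTCA overlaps the STAT core by 4 bases. In *Rarb* the STAT core begins 51 bases before the start, and AGTTCA follows it directly, at 42 bases. A match is a description of letters, and the lack of one in a window says nothing of binding elsewhere.

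*Aldh1a1* has 2 starts in this table. The window before the downstream one (chr19:20601718-20601967, plus strand) resembles that of *Aldh1a7* (chr19:20727557-20727806, minus strand), with 73.6% identity over 235 aligned bases, while the window before the upstream start aligned with 53.4% identity over 232 bases. Both sequences are shown because these neighbors share promoter sequence and differ in how their counts compared between the genotypes. The capitals mark the longest run that they share base for base, 65 bases that end 30 bases before each start.
Aldh1a1: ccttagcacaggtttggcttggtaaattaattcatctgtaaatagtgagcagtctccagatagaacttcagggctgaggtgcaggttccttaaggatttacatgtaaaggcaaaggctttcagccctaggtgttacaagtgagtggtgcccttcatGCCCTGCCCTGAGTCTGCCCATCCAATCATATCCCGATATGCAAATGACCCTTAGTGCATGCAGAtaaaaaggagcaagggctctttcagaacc
Aldh1a7: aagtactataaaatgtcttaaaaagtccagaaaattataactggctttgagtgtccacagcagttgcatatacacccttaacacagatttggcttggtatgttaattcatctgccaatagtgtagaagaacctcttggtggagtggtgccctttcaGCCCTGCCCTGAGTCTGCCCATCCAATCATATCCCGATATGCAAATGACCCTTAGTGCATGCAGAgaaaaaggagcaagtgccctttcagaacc

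The 5 genes whose profile over the 6 libraries was closest to that of *Aldh1a1*, out of 12068 whose normalized counts averaged 100 or more, were *Gbp8*, *Cysltr2*, *Cd86*, *Gm9199* and *Tapbpl*. Likeness was the root-mean-square difference of the centered log2 values. *Gbp8*, a guanylate-binding protein gene of the interferon-inducible family, differed by 0.09 and had 1522 to 1703 normalized counts in WT and 502 to 587 in IRF1 KO libraries. *Cysltr2*, a leukotriene receptor, differed by 0.09 (549 to 619 and 157 to 217). *Cd86*, a costimulatory ligand, differed by 0.15, the predicted gene *Gm9199* by 0.17, and *Tapbpl*, which edits peptides on MHC class I, by 0.18. Pearson correlations with *Aldh1a1* ran from 0.984 to 0.996 over the 6 libraries, which mainly share the step between the genotypes. Their log2 fold changes lay between −1.62 and −1.33, a direction that the choice by likeness fixes.

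**Figure D3:**
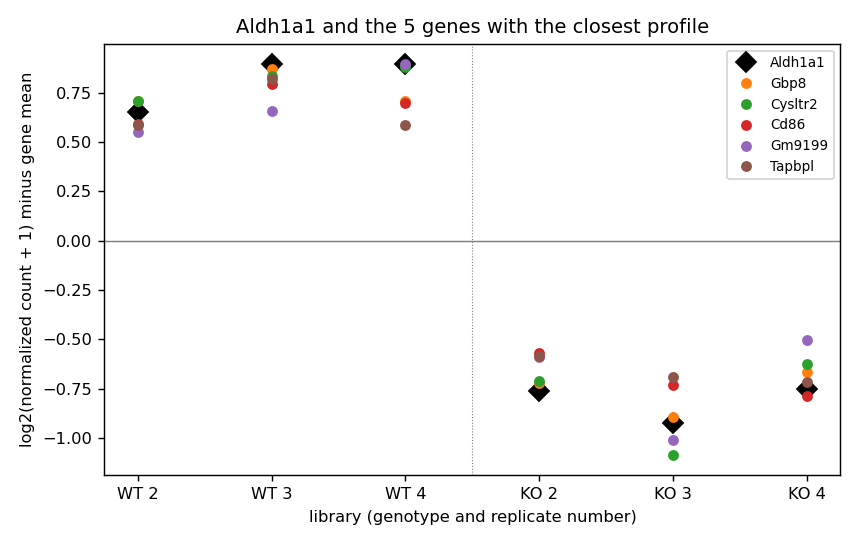
Centered log2(normalized count + 1) (vertical axis, log2 scale) of *Aldh1a1* (black diamonds) and the 5 genes with the closest profile (colored circles) in the 3 WT and 3 IRF1 KO libraries (horizontal axis). All 6 genes are above their mean in WT and below it in IRF1 KO libraries.

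Markers of the sorted cells and of other cell types were examined beside these values. The HSC markers were all counted (9 of 9 tested), with *Kit* the most abundant, and their summed level was 181871 to 199589 normalized counts in WT and 192806 to 216493 in IRF1 KO libraries. Of these, *Fgd5* was called higher (log2 fold change 0.83, SE 0.09, limma adjusted p = 9.13e-05, higher in 3 of 3), a call lost without the trend in limma. Over all genes tested, limma called 0.96% higher. Below the fold change threshold, *Ly6a*, which encodes the Sca1 of the sort, had a log2 fold change of −0.43 (SE 0.09, limma adjusted p = 0.0245, lower in 3 of 3). *Procr*, which encodes the HSC surface protein EPCR, had one of 0.52 (SE 0.10, limma adjusted p = 0.0112, higher in 3 of 3). *Slamf1*, which encodes the CD150 of the sort, had one of 0.24 (SE 0.09, limma adjusted p = 0.217, higher in 3 of 3). *Hlf* (0.25) and *Mecom* (0.30) also had an unadjusted p under 0.05 in limma. Of the HSC markers at that p, only *Ly6a* had a negative value. Of the 3 multipotent progenitor markers, led by *Cd34*, *Flt3* was called higher (0.67, SE 0.16, limma adjusted p = 0.0407), a call lost without KO 2 (0.74), KO 3 (0.55), KO 4 (0.73) or WT 3 (0.45), without the trend (0.67) and with the term for the split (0.67). The summed level of that list was 17853 to 20003 in WT and 20379 to 26211 in IRF1 KO libraries.

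Some markers of the platelet and red cell lineages were called lower in IRF1 KO HSCs, beside 0.954% of all genes tested. The 5 megakaryocyte markers, led by *Itga2b*, summed to 58569, 71204 and 56680 in WT 2, WT 3 and WT 4, and to 51358, 33579 and 46044 in KO 2, KO 3 and KO 4. Of these, 2 of 5 were called lower, *Pf4* (log2 fold change −1.11, SE 0.18, limma adjusted p = 0.00334) and *Gp1bb* (−0.90, SE 0.14, limma adjusted p = 0.00320), each lower in 3 of 3 IRF1 KO libraries. The 6 erythroid markers, led by *Epor*, summed to 5370, 4890 and 5633 in WT and to 3760, 2257 and 2821 in IRF1 KO libraries. *Hbb-bs* and *Hba-a1* had 0 counted reads in all libraries. Whether their reads were lost in counting was not examined, so the counts of 0 set no bound on their RNA. Of the 4 tested erythroid markers, 2 were called lower, *Klf1* (−0.72, SE 0.17, limma adjusted p = 0.0361) and *Car1* (−3.51, SE 0.74, limma adjusted p = 0.0200). Without the trend in limma, *Pf4*, *Gp1bb*, *Klf1* and *Car1* were not called. *Klf1* also lost its call without KO 2 (−0.83), KO 3 (−0.50), WT 2 (−0.66) or WT 3 (−0.72), and *Car1* without KO 3 (−2.60) or KO 4 (−3.16) and with edgeR (−2.48) or DESeq2 (−2.47). The part of these lineage markers in the low *Aldh1a1* level was not tested.

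Markers of mature, stromal and endothelial cells gave 0 calls by limma, edgeR or DESeq2. In the lists above, 6 HSC, 1 multipotent progenitor, 3 megakaryocyte and 2 erythroid markers had an unadjusted p under 0.05, beside 2863 of the 17404 genes tested. Here there were 0 B cell, 1 T and NK cell, 1 granulocyte and monocyte, 0 macrophage and 2 stromal and endothelial markers at that p. Of these, 2 had an adjusted p under 0.05 and missed the fold change threshold, *Emcn* (log2 fold change 0.576, SE 0.11, limma adjusted p = 0.0101) and *Prtn3* (0.53, SE 0.12, limma adjusted p = 0.0334), each higher in 3 of 3 IRF1 KO libraries. The B cell markers (6, led by *Cd79b*) summed to 2667 to 3048 in WT and 2873 to 3103 in IRF1 KO libraries, and the T and NK cell markers (6, led by *Nkg7*) to 3567 to 3839 and 2894 to 3822. The granulocyte and monocyte markers (8, led by *Lyz2*) summed to 29973 to 35345 and 33866 to 39874, and the macrophage markers (5, led by *Cd68*) to 2103 to 2317 and 1990 to 2850. The stromal and endothelial markers (6, led by *Emcn*) summed to 2087 to 2473 in WT and 3169 to 3444 in IRF1 KO libraries, and that sum did not overlap between the genotypes. It was carried by 2 genes, *Emcn* (means of 1398 and 2084) and *Kdr* (711 and 1046), while the other 4 averaged at most 75.1 normalized counts over the 6 libraries and overlapped, as did *Kdr*. In bulk samples, the cells that held the *Emcn* RNA cannot be told, so the sum does not count stromal or endothelial cells. The part of these markers in the values of the 9 genes was not tested. WT 4 stood apart in the neutrophil genes *S100a8* (1033) and *S100a9* (1246), which had at most 110 and 131 in the other libraries, and without WT 4 the log2 fold change of *Aldh1a1* was −1.59.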

How the data were processed

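RNA from sorted HSCs of 3 WT and 3 IRF1 KO mice was amplified with the SMART-Seq v4 kit, which adds no molecular identifiers, so PCR copies count as separate reads. The authors used Trim Galore! for trimming, HISAT2 for alignment (mm39 per the submitters' processing notes) and htseq-count for counting, and deposited a signal, the counts divided by DESeq2 size factors. Program versions and the strand setting are not given in the sources used here. All deposited values (100%) were whole multiples of 1 read within a tolerance of 0.001, so whole reads were recovered. Depth was 43138521 to 59658080 reads on genes per library. This is above the number of reads per sample that the paper's methods give, and the difference was not examined. Libraries of 1 genotype differed beyond the counting error of reads (chi-square per gene of 16.0 to 30.0). This measure covers counting error only and treats PCR copies as independent reads. The labels, not the data, say that each library is a separate mouse.

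For the comparison of genotypes, limma 3.58.1 (R 4.3.3, eBayes with trend) was fitted to log2(normalized count + 1) of the 17404 genes averaging 10 or more, with Benjamini-Hochberg adjustment. Calls needed adjusted p below 0.05 plus a log2 fold change beyond 0.58 in size. On recovered reads, edgeR 4.0.16 called 165 genes higher and 162 lower, and DESeq2 1.42.0 called 289 and 208. Alternatives covered the pseudocount, filter, trend, scaling, replicate block, library split and each library left out. The members and lists were chosen with earlier results of these data known. Named genes were *Irf1*, the 9 members, the highest and most changed gene of each list, any called list gene, neighbors, the 5 closest profiles, and leading or absent markers. Outside this rule, list genes with an unadjusted p under 0.05 were named for that p. *S100a8*, *S100a9*, *Aldh1a3*, *Cyp26a1*, *Cyp26c1*, *Crabp1*, *Crabp2* and *Tbl1xr1* were also named outside it. *Ly6a*, *Procr*, *Slamf1*, *Hlf*, *Mecom*, *Prtn3*, *Kdr* and *Akr1a1* were named after their values were seen. Of the genes under this rule, 1 is not reported here. Exon lengths and transcripts came from GENCODE vM1 by symbol, and promoters from RefSeq (GRCm38.p6), aligned with Biopython 1.88.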

Additional observations from a re-analysis of the deposited data

How the results depend on the processing

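The log2 fold change of *Aldh1a1*, whose direction the choice of genes fixed, was −1.71 to −1.57 over 17 alternatives. Of the 9 genes, 0 were called higher by limma, 2 by DESeq2 and 1 with the replicate block, and 0 to 1 with a library left out. The list genes outside the 9 gave 0 calls higher by limma, 2 by DESeq2, 1 with the replicate block and 0 to 1 with a library left out, and 0 calls lower in every alternative. Over all genes, 167 were called higher, against 289 by DESeq2, 7 without the trend in limma, 301 by adjusted p alone and 83 (without KO 4) to 305 (without WT 4) with a library left out. For genes called lower, 166 became 33 without the trend, 260 by adjusted p alone and 105 (without WT 3) to 265 (without WT 4). The cause of these shifts was not tested.

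The replicate block gave 219 genes called higher and 196 lower. Deviations of same-numbered libraries correlated at −0.094 (number 2), 0.246 (number 3) and 0.147 (number 4). KO 3 and KO 4 correlated best with the WT library of their own number, but KO 2 with WT 4 (0.251). The data thus do not show that the numbers pair the samples.

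Without the trend, *Fgd5*, *Flt3*, *Klf1*, *Car1*, *Pf4* and *Gp1bb* were no longer called at unchanged fold changes. *Flt3* was also not called with a term for the split, at a fold change of 0.67 on the log2 scale as in the main fit. At 3 libraries per group, genes with few reads such as *Rdh1*, *Stra6*, *Rxrg* and *Aldh1a2* had SEs of 0.82 to 1.21, so changes of that size were not detectable there.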
